A study of Mus musculus with 17 samples.

Results

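Antisense RNA (aRNA) amplification copies mRNA into cDNA from a primer on the poly(A) tail, transcribes the cDNA into many RNA copies, and repeats the cycle on its own product. It made array measurements of single neurons and of their dendrites possible, because the mRNA of 1 cell is far below what an array needs. A transcript that misses the first cDNA synthesis cannot return in a later round, and each round tends to shorten the copies from the 5′ side, so that probes near the 3′ end keep more of the signal.

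The comparison described here is between 3 arrays of 0.1 pg and 3 arrays of 1 pg of mRNA, all after 4 rounds of aRNA amplification, which are 6 of the 17 arrays of the study. The members were chosen by the labels of the arrays and not by measured values. All 17 arrays carry mRNA of 1 preparation from the cortex of adult female C57BL/6 mice, an unmodified and untreated strain, and the diluted aliquots of it were amplified independently. The replicates therefore measure the repeatability of dilution and amplification, and p-values hold for that technical spread and not for animals. The single array of 5 µg of unamplified mRNA, called bulk, serves only as a reference level. The 3 arrays of 10 pg after 4 rounds and the arrays of 1 and 0.1 pg after 2 rounds, 3 each, appear where the 4-round comparison is set against them. The single array of 10 pg after 2 rounds entered the scaling and the fit as a group of its own and is not described. The labels give the rounds, and whether the last labelling amplification is counted among them is not given in the sources used here.

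The arrays were Affymetrix GeneChips for the mouse, on which a probe set is a group of short oligonucleotides for 1 transcript region. A level below is a log2 value counted from the median of its own array, after each array was centered there and scaled by its range between the 10th and the 90th percentile. A level of 0 is thus the middle probe set of the array, and no detection call exists, so a level below 0 is not an absence. A difference is 0.1 pg minus 1 pg in log2, tested with limma, and a probe set is called when its p adjusted by Benjamini and Hochberg over all 45037 probe sets is under 0.05. Of the 18193 genes with a probe set of their own, each is shown by its brightest probe set (mean over the 17 arrays). Errors after ± are SD over 3 arrays, and SE is the standard error of a fitted difference.

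Cortex markers were present on both sides. Map2, the microtubule protein of dendrites, lay at 6.38, 6.27 and 6.75 on the 0.1 pg arrays and at 6.63, 6.74 and 6.87 on the 1 pg arrays, beside 6.16 in bulk. Nrgn, a calmodulin-binding protein of excitatory neurons, had means of 6.68 ± 0.16 and 6.79 ± 0.31. Gad1, which makes GABA in inhibitory neurons, had 4.66 ± 0.44 and 4.12 ± 0.32. The ranges of the 0.1 and 1 pg arrays overlapped for all 3 genes. They do not stand for their lists, as 3 of 19 pan-neuronal markers, Eno2, Elavl4 and Snap25, were called lower and 0 higher. Of 12 inhibitory neuron markers, 8 had differences below 0 and 4 above. Further probe sets had differences of -2.20, -1.55 and -1.24 for Map2 and -0.60 for Gad1, none of them called. In the bulk level itself, fewer cells of a type and less RNA per cell cannot be told apart.

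The arrays did not fall apart cleanly by input. Pearson's r over all probe sets had a mean of 0.892 among the 0.1 pg arrays (0.867 to 0.926), 0.822 among the 1 pg arrays (0.771 to 0.857) and 0.769 between them (0.680 to 0.846). Replicate 2 of 1 pg stood apart from its group, with r between 0.832 and 0.846 to the 0.1 pg arrays, 0.857 to replicate 1 and 0.771 to replicate 3 of its own group. The 0.1 pg arrays also went against the order of their labels. Each of them correlated more with every array of 1 pg after 2 rounds (0.855 to 0.908, mean 0.875) than with any array of 0.1 pg after 2 rounds (mean 0.743, highest 0.777). Replicate 3 of 1 pg stood apart as well, with r of 0.838 and 0.771 to its own group and hybridization controls 1.59 above bulk, beside 0.74 and 0.64 on replicates 1 and 2. In the fit with array weights it had the lowest weight of the 6 arrays, 0.578. Replicate 3 of 0.1 pg had 0.695 and replicate 2 of 1 pg had 0.700. These correlations share arrays and are a description, and the reason for the resemblances was not tested. The labels were kept as given. Every difference, rise and fall below means what it says only if the labels of 0.1 pg after 4 rounds and 1 pg after 2 rounds are right, which was not tested.

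**Figure D1:**
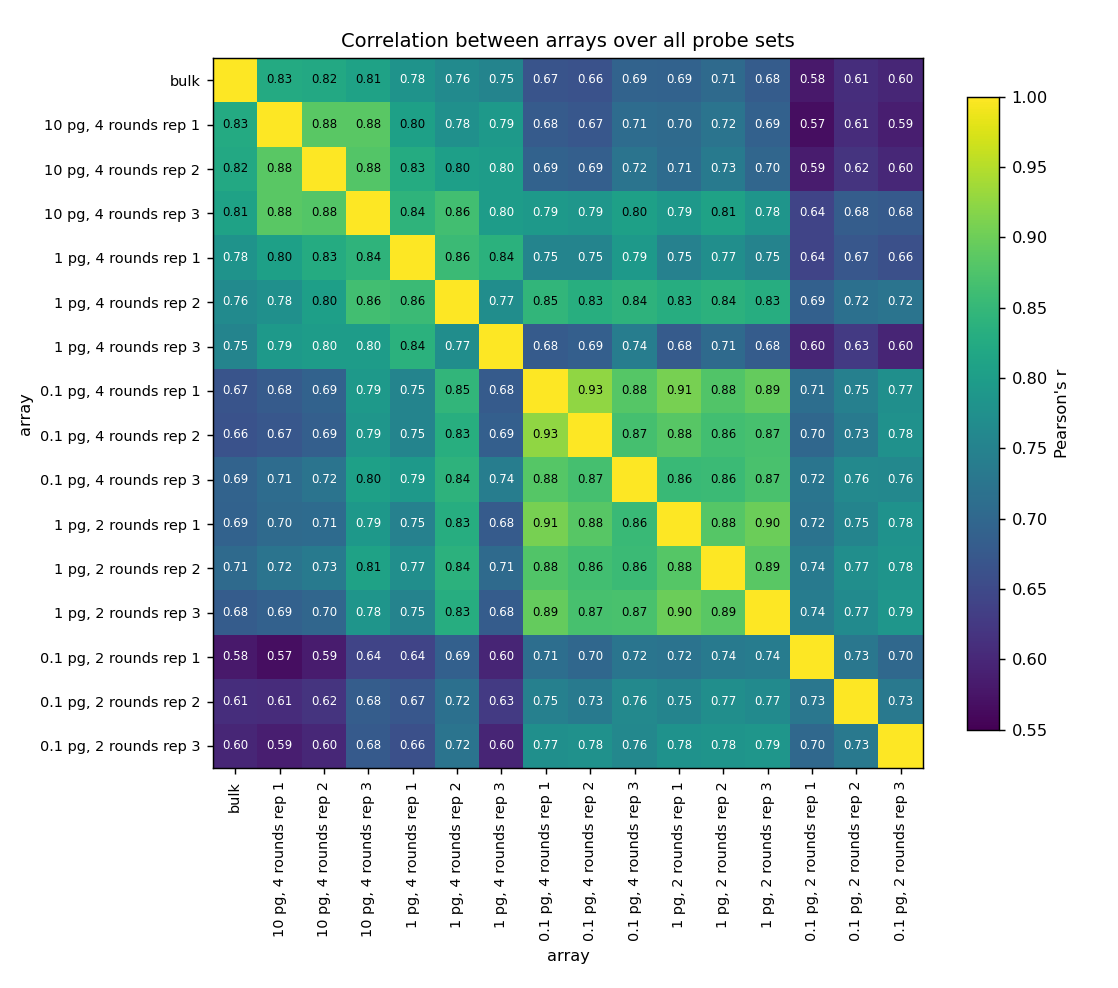
Pearson's r between arrays over 45037 probe sets, with arrays on both axes and r as colour and number. The 0.1 pg arrays after 4 rounds reach 0.855 to 0.908 with the arrays of 1 pg after 2 rounds, and replicate 2 of 1 pg after 4 rounds lies nearer to the 0.1 pg arrays than replicates 1 and 3 do.

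Of 45037 probe sets, 1246 (2.77%) were called between 0.1 and 1 pg after 4 rounds, 686 higher at 0.1 pg (1.52%) and 560 lower (1.24%). Among genes, 619 of 18193 (3.40%) were called, 368 higher (2.02%) and 251 lower (1.38%). The 3 arrays of a group did not overlap with the 3 of the other in 615 of the 619 genes, against 30.6% of all genes. Called falls were larger than called rises, with median differences of -2.93 and 2.44 over genes, beside a median of 0.04 over all genes. At a rate of 0.1%, 24 probe sets stayed, 23 of them lower. Without replicate 2 of 1 pg the count rose to 2532, 1436 higher and 1096 lower, and to 1262 genes (6.94%). Without replicate 3 of 1 pg it was 518, 149 higher and 369 lower. Leaving out any array other than replicate 2 of 1 pg gave between 207 and 846 calls. Falls outnumbered rises in these 5 fits, as with 59 rises and 148 falls without replicate 2 of 0.1 pg, except without replicate 3 of 0.1 pg, where 434 rose and 412 fell.

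The genes that fell most were abundant in bulk cortex and near or below the array median at 0.1 pg. Nipsnap2, a mitochondrial protein, lay at 5.57, 2.93 and 5.00 on the 1 pg arrays and at -2.52, -1.64 and -2.13 on the 0.1 pg arrays. All 3 arrays of 0.1 pg were thus below the array median while bulk stood at 4.94, a difference of -6.59 (SE 0.80, limma, adjusted p = 0.000874). Cltc, the heavy chain of clathrin, was even across replicates, at 5.15, 5.25 and 5.00 against 0.03, 0.19 and -0.30. Its difference was -5.16 (SE 0.53, adjusted p = 0.000208), and the bulk level of 5.58 was close to that at 1 pg. Rab6a, a GTPase of Golgi traffic, lay at 4.88, 3.55 and 4.61 against -0.88, -0.38 and -1.42. Gsk3b, the kinase of glycogen synthase and of Wnt signaling, lay at 6.19, 5.58 and 5.74 against 1.91, -0.12 and 0.26. The groups were clear of each other by more than their own ranges in both genes, with differences of -5.24 (adjusted p = 0.000657) and -5.15 (adjusted p = 0.00112).

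Kif2a, a kinesin that takes microtubules apart, lay at 3.88, 3.07 and 3.41 against -1.53, -1.43 and -2.85, a difference of -5.39 (SE 0.62, adjusted p = 0.00058). Ube2w, a ubiquitin-conjugating enzyme, had 5.94, 2.73 and 6.05 against 0.29, -1.46 and -0.64, a difference of -5.51 (adjusted p = 0.00106). Replicate 2 of 1 pg was the lowest of its group for this gene, as it was for Nipsnap2, Rab6a and Mmd. Mmd, a membrane protein first described in macrophages, lay at 4.55, 3.21 and 5.80 against -3.15, -0.36 and 0.24 (difference -5.61). Ptar1, a prenyltransferase subunit, had 5.63, 5.51 and 5.03 against 0.29, 0.38 and 0.19 (difference -5.10), and bulk at 1.73 was nearer to 0.1 pg. Lnpk, which stabilizes junctions of the endoplasmic reticulum, had 3.11, 3.53 and 0.11 against -3.06, -2.99 and -2.18 (difference -4.99). Only its replicate 3 of 1 pg came near the array median.

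In 3 of the 12 largest falls, replicate 1 of 0.1 pg kept a high level that the other two did not. Cpe, the carboxypeptidase that trims neuropeptides, lay at 2.27, -1.27 and -1.95 on the 0.1 pg arrays against 5.33, 6.37 and 5.96. Ppp1r12a, the targeting subunit of myosin phosphatase, lay at 3.88, -2.04 and -1.11 against 6.66, 6.70 and 5.88. Nucks1, a nuclear DNA-binding phosphoprotein, lay at 6.23, 0.42 and -1.66 against 7.34, 6.80 and 6.99. For all 3 genes the 1 pg arrays were close to each other, and even the high array of 0.1 pg lay below them. The differences were -6.20, -6.17 and -5.38 with adjusted p of 0.000973, 0.00599 and 0.029. Nucks1 lost its call without replicate 2 or 3 of 0.1 pg or replicate 1 or 3 of 1 pg, with differences between -7.66 and -3.72 and adjusted p up to 0.142. The other 11 of the 12 largest falls were called without each array in turn.

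Other probe sets of the same genes repeated part of the falls. Snap25, a SNARE protein of vesicle fusion, fell by 2.97 at its representative probe set and by 5.18 (SE 0.47, adjusted p = 8.29e-05) at a second one, whose mean was 5.80 ± 0.32 at 1 pg and 0.62 ± 0.25 at 0.1 pg. Gabrb2, the β2 subunit of the GABA-A receptor, fell at 3 probe sets, by 3.39, 3.93 and 2.05. Its other probe sets had 0.45 and -0.98 and were not called. Ywhae, a 14-3-3 adaptor of phosphoproteins, fell by 3.90, 4.13 and 4.19, and another probe set had 1.11 and was not called. A second probe set was also called lower for Ube2w (-5.08), Gsk3b (-3.57), Rab6a (-3.40), Nucks1 (-3.13) and Atp2b2 (-2.67). A further one of Atp2b2 had -0.57 and was not called. The 12 largest falls had 32 further probe sets, 19 of them below 0, 4 called lower and 0 called higher. Of all probe sets, 1.24% were called lower and 1.52% higher. The further probe sets of Kif2a (-0.15 to 1.62), Cpe (0.92) and Cltc (0.19) did not repeat the fall, and none of these was called.

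Over all 251 genes called lower, 189 had further probe sets, and in 15 of them another one was called lower and in 4 one was called higher. Of the 429 further probe sets, 53.4% had a difference below 0. Over all genes, 8775 of 18193 differences were below 0 and 9418 above. The 54 of the 429 that were themselves in the top 10% of bulk had 10 called lower, 1 called higher and 43 below 0, with a median of -1.39. Of all probe sets in the top 10% of bulk, 5.68% were called lower and 1.09% higher, with a median of -0.10. The 375 dimmer ones of the 429 had 8 called lower, 3 called higher and 186 below 0, with a median of 0.02. Of the 454 further probe sets of the genes called higher, 50% had a difference above 0, and 8 genes had another one called higher and 3 one called lower. Among the 20 of these in the top 10% of bulk, 0 were called in either direction and 4 lay above 0. Syn2, a synapsin of the vesicle pool, went both ways, with -2.49 at its representative probe set and 3.05 (adjusted p = 0.0158) at another.

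**Figure D2:**
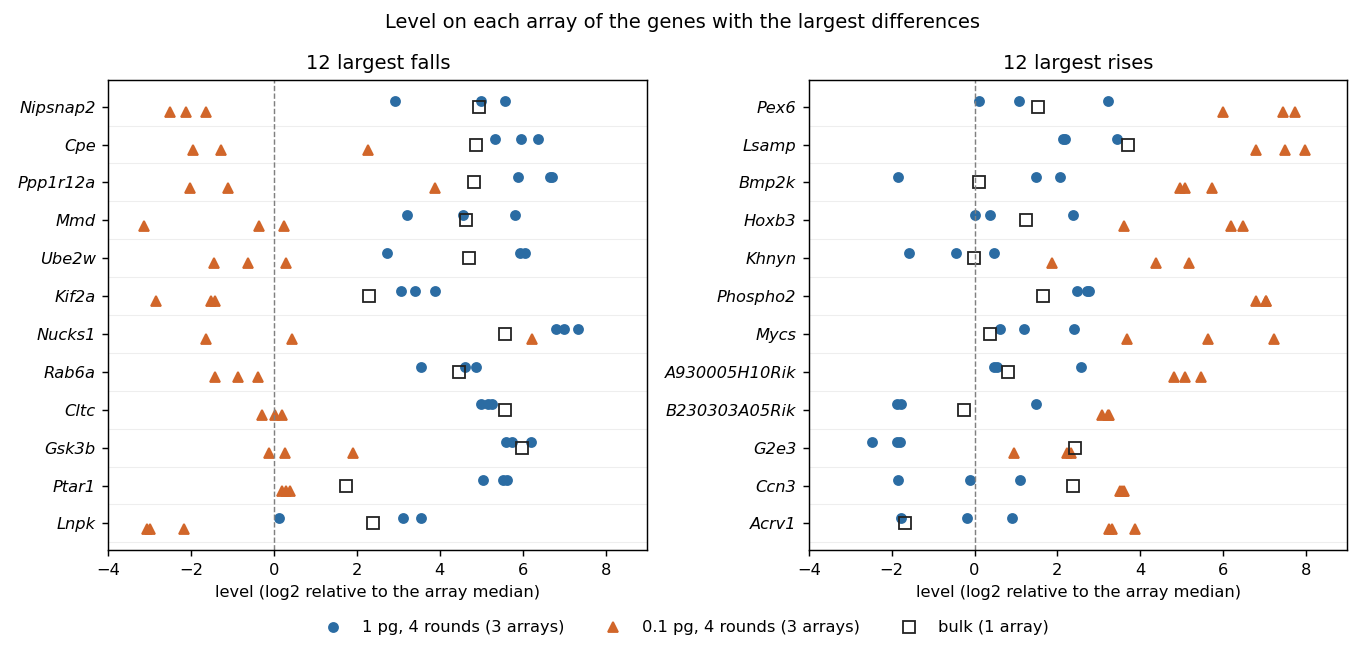
Level (log2 relative to the array median) of the 12 genes with the largest called falls and the 12 with the largest called rises. Circles are the 3 arrays of 1 pg, triangles the 3 of 0.1 pg and the open square is bulk. At 0.1 pg the falls lie near or below 0 except for single arrays of Cpe, Ppp1r12a, Nucks1 and Gsk3b.

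The genes that rose most were mostly of modest level in bulk and reached high levels at 0.1 pg. Pex6, an ATPase that recycles the peroxisomal import receptor, lay at 7.72, 7.45 and 6.01 on the 0.1 pg arrays and at 1.08, 3.21 and 0.11 on the 1 pg arrays. Bulk was 1.53, and the difference was 5.59 (SE 0.86, limma, adjusted p = 0.00337). Lsamp, an adhesion protein of limbic neurons, lay at 7.97, 7.49 and 6.79 against 2.19, 2.13 and 3.45, beside 3.71 in bulk. Phospho2, a phosphatase, had close replicates, at 7.04, 7.04 and 6.79 against 2.71, 2.77 and 2.48. For both genes every 0.1 pg array was above every 1 pg array and above bulk, with differences of 4.83 (adjusted p = 0.00189) and 4.30 (adjusted p = 0.00248).

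Bmp2k, a kinase induced by BMP2, lay at 5.08, 4.95 and 5.72 against 1.49, 2.06 and -1.86 (difference 4.68). Hoxb3, a homeobox factor of the hindbrain that adult cortex is not known for, lay at 6.49, 6.20 and 3.61 against 0.02, 2.37 and 0.38 (difference 4.51, adjusted p = 0.0171). Its call was lost without replicate 1 or 2 of 0.1 pg or replicate 1 or 3 of 1 pg, with adjusted p up to 0.0986. Ccn3, a secreted matricellular protein, lay at 3.61, 3.52 and 3.57 against -0.11, 1.09 and -1.86 (difference 3.86). G2e3, a ubiquitin ligase of the cell cycle, was the exception to the pattern against bulk. It stood at 2.24, 2.34 and 0.95 against -1.86, -1.81 and -2.48, and bulk at 2.42 was next to the 0.1 pg arrays (difference 3.89, adjusted p = 0.00246).

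The other rises of this size were Khnyn (4.34), Mycs (4.11), Acrv1 (3.84), an acrosome protein of sperm, and the transcripts A930005H10Rik (3.92) and B230303A05Rik (3.90). Acrv1 was at -1.67 in bulk and at 3.88, 3.26 and 3.32 at 0.1 pg. For B230303A05Rik the 0.1 pg arrays lay at 3.25, 3.08 and 3.22, and the 1 pg arrays at -1.86, 1.49 and -1.77. Replicate 2 of 1 pg was the highest of its group in each of the 12 genes except Lsamp. Acrv1 and B230303A05Rik lost their calls without any 1 of 5 of the arrays, with adjusted p up to 0.107 and 0.154, and A930005H10Rik without replicate 1 of 1 pg (0.0518). The other rises of the 12 apart from Hoxb3 were called without each array in turn.

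Falls were concentrated at high levels in bulk. When probe sets were put into 10 classes of equal size by their bulk level, 256 of the 560 falls (45.7%) were in the highest class and 125 in the next, so that 5.68% and 2.78% of these classes were called lower. In the lowest class 1 probe set of 4504 was called lower. The median level at 1 pg was -1.84 in that class and 3.74 in the highest, so a fall had little room in the lowest class. Rises were spread over all classes, with 47 in the lowest, 93 each in the eighth and ninth and 49 in the highest. The median difference of all probe sets went from 0.42 in the lowest class to -0.23 in the ninth and was -0.10 in the highest. The share of falls in the highest class was 34.4% without replicate 2 of 1 pg and between 46.1% and 61.5% without any other of the 6 arrays.

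**Figure D3:**
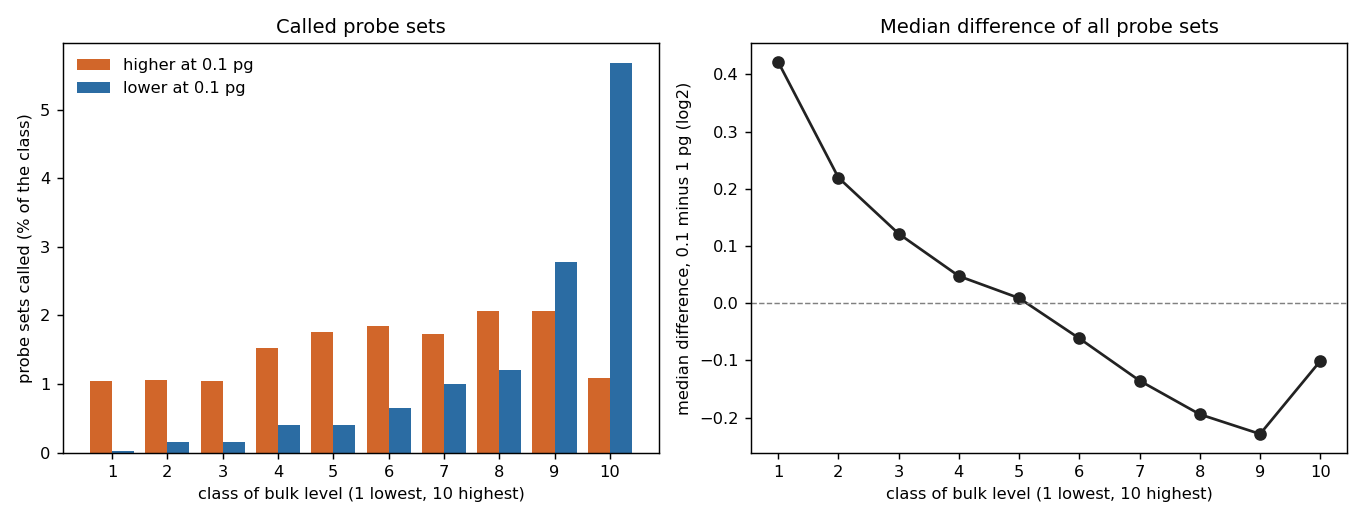
Left, percent of the probe sets of each class of bulk level (4503 or 4504 each) that were called higher or lower at 0.1 pg. Right, median difference in log2 of all probe sets of the class. Calls lower at 0.1 pg climb to 5.68% in the highest class, and the medians cross 0 between classes 5 and 6.

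Transcripts abundant in bulk dropped below the array median more often at 0.1 pg. Of the 1820 genes in the top 10% of bulk, 68, 81 and 71 lay below the median on the 0.1 pg arrays, 21, 33 and 28 on the 1 pg arrays and 11, 15 and 11 on the 10 pg arrays after 4 rounds. The counts of 0.1 and 1 pg did not overlap, with means of 73.3 ± 6.81 and 27.3 ± 6.03 (n = 3 each, two-sided exact permutation test, p = 0.1, the smallest this design can give). With the median over a gene's probe sets in place of the brightest one, the means were 228 and 132, a difference of 95.7 instead of 46. The 2-round arrays had counts of 108, 102 and 112 (0.1 pg) and of 31, 23 and 44 (1 pg). At 0.1 pg, 30 genes were below the median on all 3 arrays, 46 on 2 and 38 on 1, while at 1 pg it was 7, 13 and 35. At 1 pg a gene was thus most often low on a single array, and at 0.1 pg on more than 1.

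These 30 genes were picked by their low levels at 0.1 pg, so a fall is partly built in and the counts are a description. Of the 30 genes, 14 were above the median on all 3 arrays of 1 pg, and 13 were called lower, beside 1.38% of all genes. Among them were Arf3, a GTPase of the Golgi, with -0.07, -1.88 and -1.71 against 2.91, 2.75 and 4.25 (difference -4.52, adjusted p = 0.000874), and Mzt1, a subunit of the γ-tubulin complex, with -0.64, -2.65 and -2.13 against 4.59, 3.23 and 1.66 (difference -4.96). Skp1, the core adaptor of SCF ubiquitin ligases, had -0.11, -1.25 and -0.36 against 4.42, 3.82 and 3.27 (difference -4.41). All arrays of 0.1 pg lay below and all arrays of 1 pg above the median for these genes, and their bulk levels were 4.13, 4.71 and 4.26. Secisbp2l (-4.85), Pdp1 (-4.14), Rhob (-4.08), Pkp4 (-3.89), Oxr1 (-3.84), Serinc1 (-3.68), Myef2 (-3.53) and Cacna2d1 (-2.32) were the others besides Nipsnap2 and Rab6a.

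Calls of Pdp1, Rhob, Pkp4, Oxr1, Serinc1 and Cacna2d1 were lost without at least 1 array, with adjusted p up to 0.155. Another 12 of the 30 were neither called nor below the median on all 3 arrays of 1 pg, with differences between -2.98 and -0.24 and adjusted p of at least 0.0568. The other 5 were below the median on all arrays of 1 pg too, and are named after their values were seen. They were Cmpk1, Ing3, Tuba4a, Gca and Rapgef2, with bulk levels between 4.18 and 4.84, and their differences were between -1.04 and 0.44 with adjusted p of at least 0.445. Over the 1820 genes, 98 were called lower and 11 higher.

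The 8 largest rises among these abundant genes were smaller. Kcnc1, a fast delayed rectifier potassium channel, lay at 6.84, 6.58 and 6.43 against 3.92, 4.54 and 2.03, beside 4.60 in bulk (difference 3.12, adjusted p = 0.0132). Rbm5, a splicing regulator, lay at 3.76, 3.70 and 3.41 against 1.05, 1.38 and 1.20, and bulk at 4.34 was nearer to 0.1 pg. Its difference was 2.41 (SE 0.48, adjusted p = 0.0135). Ifna2 (2.38), Ankrd17 (2.32), Gm12758 (2.27), Castor2 (2.12), Supt20 (2.05) and Rnf170 (1.78) followed. All 8 lost their calls without at least 3 of the arrays left out one at a time, with adjusted p up to 0.163. A further probe set of Supt20 was called lower (-3.10, adjusted p = 0.045).

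At the other end of the scale, few genes that are dim in bulk became bright. Of the 7054 genes below the bulk median, 16, 17 and 6 were in the top 10% of the 0.1 pg arrays and 25, 9 and 50 in that of the 1 pg arrays. The ranges overlapped, and replicate 3 of 1 pg held the most.

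Some neuronal and synaptic lists had called members that fell. At their representative probe sets, 0 of 13 excitatory and 0 of 12 inhibitory neuron markers were called. Of 19 pan-neuronal markers, 3 fell and 0 rose, beside 1.38% and 2.02% of all genes and 98 and 11 of the 1820 genes abundant in bulk. The median of the list was -0.28, and its median member stood at the percentile 86.0 of bulk, that of the synaptic vesicle list at 90.7. Eno2, the neuronal enolase of glycolysis, lay at -0.47, -0.15 and 3.74 against 5.09, 4.14 and 6.33 (difference -4.15, adjusted p = 0.0214). Replicate 3 of 0.1 pg was the highest of its group and lay below every 1 pg array. Elavl4, an RNA-binding protein of neurons, lay at 1.34, 0.47 and 0.28 against 3.99, 3.48 and 3.66 (difference -3.01, adjusted p = 0.00862). Snap25 was the third. Of 20 genes of synaptic vesicle release, Snap25, Syn2 and Rims1 (-2.45), a scaffold of the active zone, fell, and Vamp1, a SNARE protein of the vesicle, rose by 1.93. Each of these 6 genes lost its call without at least 1 array, with adjusted p up to 0.172.

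Receptors gave a small number of falls, beside 1.38% of all genes and 98 of the 1820 genes abundant in bulk called lower. Gabrb2 was the 1 of 8 GABA-A subunits called, at 3.47, 2.72 and 3.18 against 6.22, 7.29 and 6.02 (adjusted p = 0.000973), and it was called without each array. Of 13 ionotropic glutamate receptor genes 2 fell. Gria2, the AMPA subunit that sets calcium permeability, lay at 0.92, 0.71 and 1.84 against 4.54, 2.23 and 5.19, beside 6.07 in bulk (difference -2.83, adjusted p = 0.0436). Grin2b, an NMDA receptor subunit, had a difference of -2.22 (adjusted p = 0.0423). Both were lost without any of 5 of the arrays, with adjusted p up to 0.186 and 0.18.

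Of 17 mRNAs localized in dendrites, 14 had differences below 0, with a median of -0.44, and 3 were called lower, beside 8775 of all 18193 genes below 0 and 1.38% called lower. The median member stood at the percentile 84.2 of bulk, and falls were more frequent at high bulk level (98 of the 1820 abundant genes). They were Gria2, Actb and Arc. Actb, cytoplasmic β-actin, had means of 4.30 ± 0.99 and 6.59 ± 0.53 (difference -2.29, adjusted p = 0.0334). Arc, the activity-induced gene of synaptic plasticity, lay at -1.30, -1.35 and -1.16 against 0.84, 0.37 and 0.80 (difference -1.94, adjusted p = 0.0199). By representative probe sets it was also the 1 gene called of 17 postsynaptic density and of 14 immediate early genes. A further probe set of Homer1, a postsynaptic density gene not called at its representative one, had -4.75 (adjusted p = 0.00862). Actb and Arc were lost without 4 of the arrays each, with adjusted p up to 0.172 and 0.0946. A further probe set of Actb had a difference of -0.65 (adjusted p = 0.649). In the list of 10 genes that encode the same or nearly the same protein as another member, Actb was the 1 called. Actg1, the other cytoplasmic actin, had means of 1.42 ± 1.61 and 1.70 ± 1.29 (difference -0.28, adjusted p = 0.88), and its difference from Actb was not tested. Rac1 of that list had -2.70 (adjusted p = 0.06).

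The 14-3-3 proteins had the lowest median of the 35 lists at -1.51, with all 7 members below 0 and 2 called lower. Over all genes 1.38% were called lower, and among the 1820 genes abundant in bulk 98 were. The median member of the list stood at the percentile 94.3 of bulk. Ywhae lay at 0.84, 0.29 and 2.88 against 5.21, 4.77 and 5.72 (difference -3.90, adjusted p = 0.00482). Ywhag lay at 1.16, 0.38 and 1.44 against 4.30, 3.11 and 5.95 (difference -3.46, adjusted p = 0.0212). The groups of both were apart, and bulk was at 5.99 and 5.18. Ywhaz, the brightest member in bulk at 6.77, had a difference of -1.51 (adjusted p = 0.0588) at its representative probe set and -5.06 (adjusted p = 0.000493) at another. Ywhae was called without each array, and Ywhag was lost without 4 of them (adjusted p up to 0.109).

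The next counts stand beside 1.38% of all genes called lower and 2.02% called higher. Among the 1820 genes abundant in bulk, 98 were called lower and 11 higher. Of 13 pump ATPases the median was -0.88 and Atp2b2, a plasma membrane calcium pump, was called at -1.89 (adjusted p = 0.047). Of 21 ubiquitin ligase cores and conjugating enzymes, Skp1 and Ube2w fell. Of 59 RAB GTPases, Rab6a, Rab17 (-2.93, adjusted p = 0.00288) and Rab1a (-2.37, adjusted p = 0.0218) fell (5.08%) and 0 rose. Rab1a acts between the endoplasmic reticulum and the Golgi, and Rab17 in epithelial transport. Cltc was the 1 of 19 clathrin endocytosis genes called, Cpe the 1 of 10 of neuropeptide processing, and Eno2 the 1 of 13 of glycolysis. These counts rest on the representative probe set of each gene. Further probe sets of uncalled members were called lower, for Atp2b1 (-4.99, adjusted p = 0.00184), Ube2d3 (-4.02, adjusted p = 0.00953) and Clta (-2.83, adjusted p = 0.016). Of 19 motor genes Kif2a fell and Kif3a, a kinesin-2 motor, rose by 1.95 (adjusted p = 0.0316). Atp2b2, Rab1a and Kif3a were lost without at least 4 of the arrays, with adjusted p up to 0.186.

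Lists picked as silent in adult cortex had few calls, all of them rises, beside 2.02% of all genes called higher. The median Hox gene and olfactory receptor stood at the percentiles 41.0 and 41.2 of bulk, so these lists were not at a low level there. Over all genes, 9418 of 18193 differences were above 0. Of 33 Hox genes, 21 had differences above 0, and Hoxb3 and Hoxa11 (2.36, adjusted p = 0.0267) were called. Of 31 vomeronasal receptors, which sense pheromones in the nose, 23 had differences above 0, with the highest median of the lists at 0.67, and 1 was called, Vmn1r54 (1.68, adjusted p = 0.0476). For reference, the median difference of all probe sets was 0.42 in the lowest and 0.22 in the next class of bulk, and the median vomeronasal receptor stood at the percentile 13.6 of bulk. In 38 olfactory receptors 0 were called. Among genes of other organs, Akap4 of the sperm tail (3.29, adjusted p = 0.0188) and Ttn of the muscle sarcomere (2.27, adjusted p = 0.0336) were called, 1 of 20 testis genes and 1 of 19 genes of liver, muscle and pancreas.

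Of 80 potassium channels 3 rose (3.75%) and 0 fell, beside 2.02% and 1.38% of all genes. Besides Kcnc1 they were Kcnj3, a G protein-gated inward rectifier, at 3.52, 4.00 and 3.23 against 0.34, 1.57 and -0.18 (difference 3.01), and Kcnv1, a silent modifier subunit, at 5.10, 4.70 and 3.59 against 1.85, 1.98 and 1.24 (difference 2.77, adjusted p = 0.00701). Of 43 respiratory chain genes Ndufs4, a subunit of complex I, rose by 3.81 (adjusted p = 0.00321), from 0.21, 1.65 and -0.70 to 4.46, 4.13 and 3.97. Of 76 mitochondrial ribosomal proteins Mrpl50 (3.13), Mrpl20 (2.15) and Mrps26 (2.11) rose (3.95%) and 0 fell. The medians of these 3 lists lay between -0.08 and 0.03, beside 0.04 over all genes. Without replicate 2 of 1 pg, 9 mitochondrial ribosomal proteins were called higher and 1 lower, and 5 vomeronasal receptors higher.

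Markers of the other cell types of the cortex gave few calls, beside 2.02% of all genes called higher and 1.38% called lower. Of 11 microglia markers Trem2, a receptor of lipids, rose by 2.11 (adjusted p = 0.0395), and of 12 vascular markers Pdgfrb, the receptor of pericytes, rose by 2.99 (adjusted p = 0.0101), with means of 5.79 ± 0.39 at 0.1 pg and 2.80 ± 0.29 at 1 pg. Besides the excitatory and inhibitory neuron lists, of 14 astrocyte, 13 oligodendrocyte, 4 blood and 7 choroid plexus and ependyma markers 0 were called, and the medians of these 6 lists lay between -0.26 and 0.53. The tubulins, the proteasome and the cytosolic ribosomal proteins, with 11, 26 and 47 members, also had 0 calls. These counts rest on representative probe sets. At 1 further probe set the astrocyte marker Gja1 was called lower (-3.39, adjusted p = 0.0286). Further probe sets of the inhibitory neuron marker Lhx6 (2.44, adjusted p = 0.0168) and the tubulin Tubb4b (2.05, adjusted p = 0.0399) were called higher. In all, 25 of the 35 lists had at least 1 called member, 10 to 14 when any array other than replicate 3 of 0.1 pg (20 lists) or replicate 2 of 1 pg (31 lists) was left out. Hoxa11, Vmn1r54, Akap4, Ttn, Trem2, Kcnj3, Mrpl50, Mrpl20 and Mrps26 lost their calls without at least 3 of the arrays (adjusted p up to 0.202), and Pdgfrb without replicate 1 of 1 pg (0.0555).

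**Figure D4:**
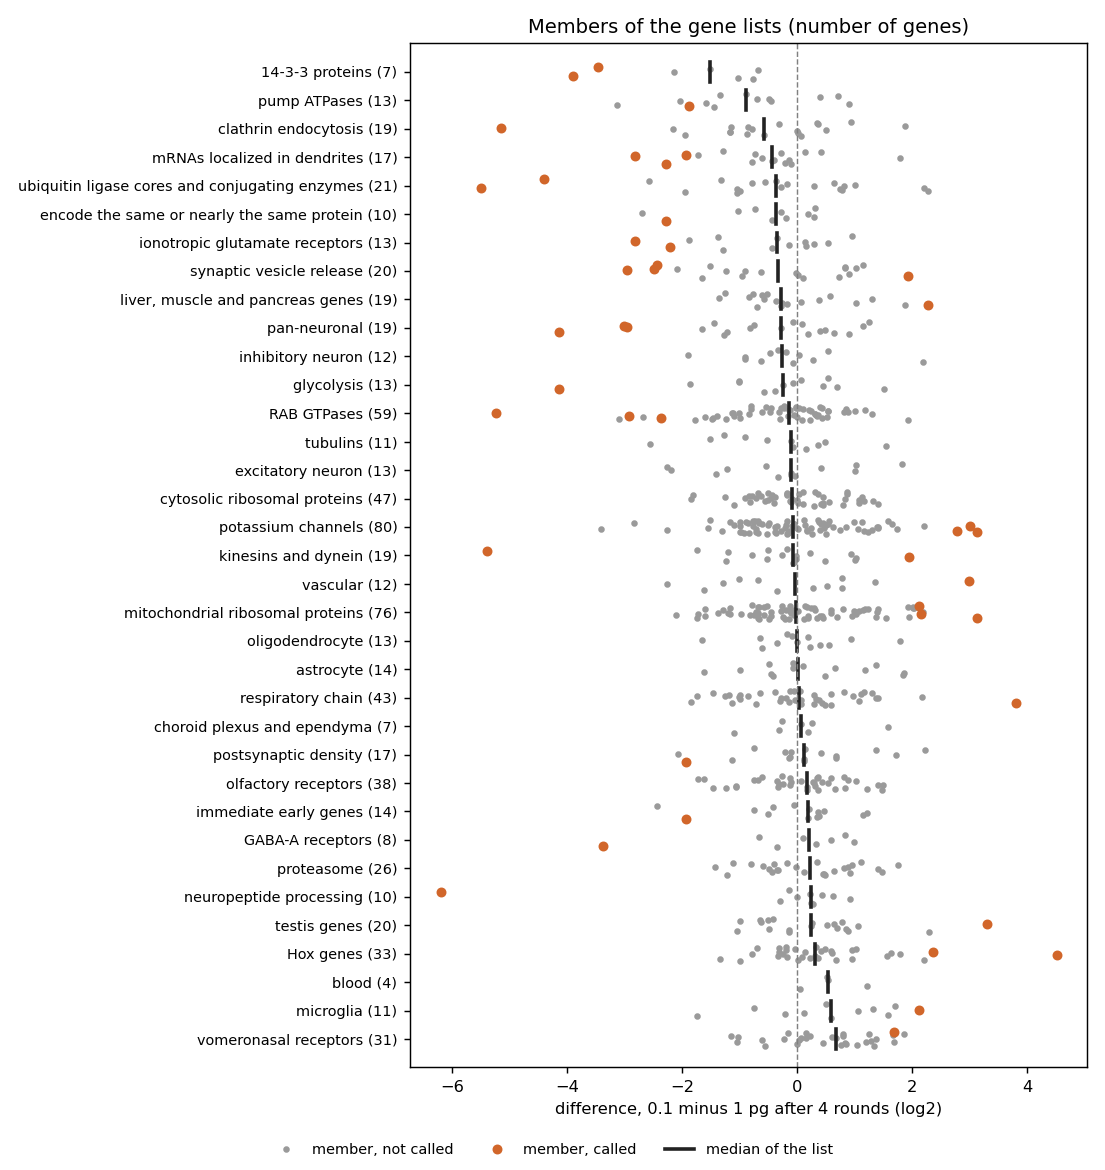
Difference of 0.1 minus 1 pg after 4 rounds (log2) for each member of the 35 gene lists, 1 point a gene, ordered by the median (bar), with called genes in orange and the number of genes in parentheses. The medians lie between -1.51 (14-3-3 proteins) and 0.67 (vomeronasal receptors), and the called member farthest below 0 is Cpe at -6.20 and the one farthest above is Hoxb3 at 4.51.

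After 2 rounds of amplification the same dilution step gave other calls. Between 0.1 and 1 pg after 2 rounds, 704 probe sets (1.56%) were called, 278 higher and 426 lower, and 295 genes (1.62%). Both comparisons called 102 probe sets, 8.19% of the calls after 4 rounds and 14.5% of those after 2. Of these, 53 were lower in both, 0 were higher in both, and 49 went in opposite directions, 47 of them higher after 4 and lower after 2 rounds. The test of the difference itself called 1619 probe sets (3.59%) and 727 genes (4.00%), 1107 of the probe sets with a higher and 512 with a lower effect after 4 rounds. It called 2647 when the 1 pg, 4-round replicate 2 was left out, and leaving out single arrays of the 12 gave between 341 and 3331.

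Rises after 4 rounds went the other way after 2 rounds more often than falls did. Of the 686 rises, 557 had a difference below 0 after 2 rounds, with a median of -0.77, and the effects differed in 445. Of the 560 falls, 401 were below 0 after 2 rounds as well, with a median of -0.62, and the effects differed in 153. Over all probe sets 49% were below 0 after 2 rounds. With the 1 pg, 4-round replicate 2 left out, 1123 of 1436 rises and 653 of 1096 falls were below 0. All 12 of the largest rises had differences below 0 after 2 rounds and effects that differed. The calls were made on the difference after 4 rounds, which is also part of the tested difference of effects. The counts of effects that differed among them are therefore a description. Lsamp had 4.83 after 4 and -2.60 after 2 rounds (difference of the effects 7.43, SE 0.95, adjusted p = 0.00242), and Ccn3 had 3.86 and -3.02. On the arrays of 1 pg after 2 rounds Lsamp stood at 7.63, 6.63 and 6.48, beside 7.97, 7.49 and 6.79 at 0.1 pg after 4 rounds.

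Among the largest falls, Cpe (-3.73), Ube2w (-3.45), Ppp1r12a (-4.77), Cltc (-2.34) and Lnpk (-3.77) were called lower after 2 rounds too. For Cltc the effects nonetheless differed (adjusted p = 0.0468). Gsk3b had -0.12 after 2 rounds (adjusted p = 0.946), and Gabrb2 had -0.04 (adjusted p = 0.969), where both 0.1 and 1 pg were already near 3 at Gabrb2. The effects differed by -5.04 and -3.34. Snap25 had -3.86 after 2 and -2.97 after 4 rounds, called in both.

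**Figure D5:**
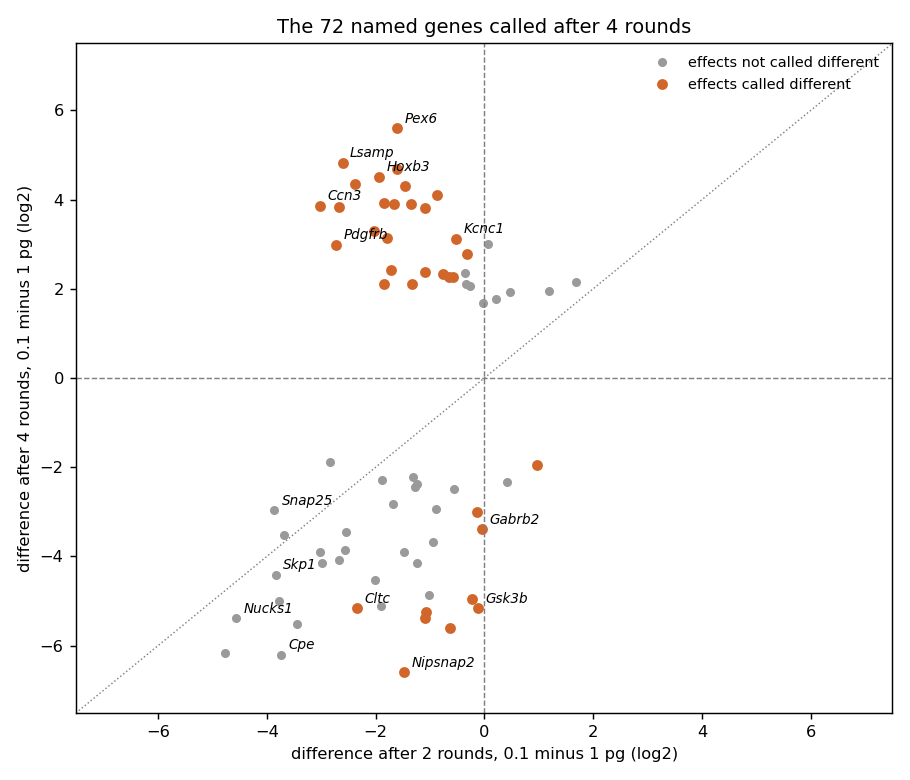
Difference of 0.1 minus 1 pg (log2) after 2 rounds (horizontal axis) and after 4 rounds (vertical axis) for the 72 named genes called after 4 rounds. Orange points are the 35 whose effects were called different, the dotted line marks equal effects and the dashed lines mark 0. Of 34 rises 29 lie left of 0, and of 38 falls 36 do.

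The called probe sets were also set against the reference levels. Of the 686 rises the 1 pg mean was nearer to bulk in 617 (89.9%), and of the 560 falls in 457 (81.6%), against 63.3% of all probe sets. With the mean of 10 pg after 4 rounds as the reference it was 620 and 474, against 66.2%. With 1 pg after 2 rounds as the reference the 0.1 pg mean was the nearer one, in 636 rises and 480 falls, against 30728 of all 45037 probe sets. Rises lay a median of 2.68 above bulk at 0.1 pg and 0.21 above it at 1 pg, and falls a median of 2.68 below it and 0.20 above it. Because 0.1 and 1 pg are the groups that defined the calls, these shares are a description.

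Control probe sets along 1 transcript showed the 3′ and 5′ ends. For β-actin the 3′ minus the 5′ probe set was -0.73, -0.71 and -0.99 at 0.1 pg and 0.57, -0.02 and 0.02 at 1 pg, beside 1.09 in bulk. The means were -0.81 ± 0.156 and 0.19 ± 0.327 and the arrays did not overlap (two-sided exact permutation test, p = 0.1, the smallest possible). The 5′ probe set differed little, with 1.85 and 1.74, and the 3′ one had 1.04 and 1.93. Gapdh had a 3′ excess of 3.71 ± 0.029 and 4.03 ± 0.373 (p = 0.4) by the same exact permutation test, and its groups overlapped. The transferrin receptor went the other way, with a 3′ excess of 6.62 ± 0.769 at 0.1 pg and 6.08 ± 0.154 at 1 pg (exact permutation test, p = 0.4), and its groups overlapped. Its 5′ probe set lay below the array median at -1.92 and -1.68, so this excess rests on a dim probe set.

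After 4 rounds a probe set had a median SD of 0.438 (0.1 pg), 0.525 (1 pg) or 0.418 (10 pg). SDs over 2 were found in 0.566% of probe sets at 0.1 pg and 2.32% at 1 pg, where replicates 2 and 3 stood apart. In the highest class of bulk the median SD was 0.32 at 0.1 pg and 0.548 at 1 pg, and in the lowest class it was 0.548 and 0.501. The 95% interval of a single difference, before adjustment for the number of probe sets, had a median half-width of 1.18.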

How the data were processed

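The samples were grouped by GEO's labels alone, 3 arrays a group except for 1 array of bulk and 1 of 10 pg after 2 rounds. Probe set values were deposited by the authors on a log2 scale, from 1.56 to 15.8, and made with RMA 2.0 per the methods. The centering and scaling the methods describe were not in the deposited values (array medians 5.64 to 6.01), so each array was centered on its median and divided by its 10th to 90th percentile range, then multiplied by the mean range of 4.63. Of 45101 probe sets, 64 controls were left out. Of the others 34945 had 1 gene symbol, 932 several and 9160 none in the platform annotation, and only the first kind was named. No 2 arrays held the same values (at most 0.926% identical within 1e-06). No depth applies to arrays, and their number limits the precision.

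Group means over all 17 arrays were fitted with limma 3.58.1 (R 4.3.3), with Benjamini-Hochberg adjustment at 0.05. The difference between rounds was an interaction of the same fit. Single values were tested by two-sided exact permutation with scipy 1.17.1, which cannot go below 0.1 for 3 against 3. In data simulated for the 4-round comparison (45037 probe sets), 18 of 100 changes of 2 and 91 of 100 of 4 on the log2 scale were recovered, and 5 unchanged probe sets were called. The simulated arrays all had the same independent spread at a probe set. The real arrays had weights between 0.339 and 2.98, so these figures need not hold for them. Named genes were the 12 largest called falls and rises without overlap, the 8 largest of each in the highest 10% of bulk, in each list the 2 highest and 2 lowest members and the one highest in bulk, the genes of nearly the same protein and control transcripts. Other called list members and the genes low on all 3 arrays of 0.1 pg were named after their values were seen. Members and lists were chosen with earlier results of these data known. Alternatives were the deposited values, median centering, quantile normalization, the 6 arrays alone, a replicate block, a filter on low levels, array weights, the methods' t-test, 1 probe set per gene, the median over a gene's probe sets, the top 5% and 20% of bulk, a stricter rate and leaving out each array.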

Additional observations from a re-analysis of the deposited data

Results flagged for a closer look

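The effect of 0.1 against 1 pg differed between 4 and 2 rounds in 1619 probe sets, by limma's test of the difference itself. It differed in 36 of the 85 genes named in the text, beside 727 of all 18193 genes (4.00%). Many of the 85 were chosen by their difference after 4 rounds, which is part of the tested value. A larger share among them is therefore built in and is a description. The values here are the effect after 4 rounds minus that after 2 rounds, in log2. Among the genes that fell after 4 rounds it was -5.12 for Nipsnap2, -4.97 for Mmd, -4.30 for Kif2a, -4.16 for Rab6a, -2.82 for Cltc, -5.04 for Gsk3b, -4.74 for Mzt1, -2.88 for Elavl4, -3.34 for Gabrb2 and -2.91 for Arc. Egr1, an immediate early gene that was not called after 4 rounds (-2.45, adjusted p = 0.0698), had -4.33.

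Among the largest rises it was 7.19 for Pex6, 7.43 for Lsamp, 6.30 for Bmp2k, 6.44 for Hoxb3, 6.71 for Khnyn, 5.75 for Phospho2, 4.98 for Mycs, 5.76 for A930005H10Rik, 5.24 for B230303A05Rik, 5.55 for G2e3, 6.88 for Ccn3 and 6.52 for Acrv1. Rises among genes abundant in bulk had 3.64 for Kcnc1, 4.12 for Rbm5, 3.47 for Ifna2, 3.08 for Ankrd17, 2.86 for Gm12758 and 3.97 for Castor2. In the gene lists it was 4.90 for Ndufs4, 4.92 for Mrpl50, 3.09 for Kcnv1, 5.32 for Akap4, 2.92 for Ttn, 3.43 for Trem2 and 5.71 for Pdgfrb.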

How the results depend on the processing

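Of the 72 named genes called after 4 rounds, 29 were called without each array in turn, all 72 under the deposited values, median centering and quantile normalization, and 50 with the 6 arrays alone. The 1246 calls became 790 with the 6 arrays alone, 10623 with array weights, 740 with 1 probe set for each gene, 24 at a rate of 0.1% and 0 by the methods' t-test after adjustment (8406 at an unadjusted p under 0.05), and 207 to 2532 leaving out 1 array. The 1619 differences between rounds became 880 with the 12 arrays alone and 341 to 3331 leaving out 1 array. Lists with a called member numbered 10 to 31 leaving out 1 array. The median turned its sign in 1 to 7 of 35 lists, depending on the setting. The difference of 46 in abundant genes below the median became 95.7 with the median over a gene's probe sets, 7 in the top 5% and 126 in the top 20% of bulk. Spearman's rho was lower than Pearson's r, with means of 0.832 among the 0.1 pg arrays, 0.565 of these with bulk and 0.697 of 1 pg with bulk. Uncalled differences that changed sign without 1 array were those of Nrgn (-0.27 to 0.042), Actg1 (-1.21 to 0.20) and Gca (-1.06 to 0.068). The cause was not tested in any of these.

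Arrays that share a replicate number did not deviate together in all 3 pairs (r -0.04, 0.05 and 0.14), so the numbers were not taken as pairs. With the replicate number as a block, 918 probe sets were called after 4 rounds, 459 in each direction, and 1131 differed between rounds, and 59 of the 72 named genes were called.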
